A study of Homo sapiens with 6 samples.

Results

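The genes of the ATP-binding cassette (ABC) family were examined in poly(A)+ RNA of Mono-mac-6 cells after DDX6 was targeted by CRISPR. This established line comes from human acute myeloid leukemia, has monocytic features and carries an MLL-AF9 fusion gene. Members were the rows of the deposited expression table whose symbol begins with ABC, a family letter from A to G and a number. The table held 44 such symbols among 18806, and 23 of them had a TPM (a length-scaled share of the transcripts of a library) of 1 or more in at least 2 libraries. The groups were sgDDX6.1 and sgDDX6.2, cells with either of the guides against DDX6, and sgNS, cells with a control guide, with 2 libraries each and 6 in all. All of them came from a single Cas9-expressing clone of the line, so they stand for 1 clone, and all went through lentiviral transduction and selection with blasticidin (10 µg/ml) and hygromycin B (200 µg/ml). Per the labels they were harvested 8 days after infection, while the design text gives the length of selection as a range of weeks, so the day of harvest is uncertain. DDX6 encodes a DEAD-box RNA helicase known for its roles in decapping, mRNA turnover and the silencing of translation.

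ABC proteins bind and hydrolyse ATP through a pair of nucleotide-binding folds. In families A, B, C, D and G these folds drive transport of lipids, drugs, peptides, heme precursors or fatty acids across membranes, and some transporters of families B, C and G export chemotherapy from leukemia cells. Families E and F have no membrane span and act on ribosomes instead. In monocytes and macrophages ABCA1 is known as the exporter that loads cholesterol onto apolipoprotein A-I, and it is induced by the liver X receptors (LXR).

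No library stood apart from its replicate (Pearson r 0.998 over genes, as a description), and 10794 to 11007 genes reached 1 TPM in a library. DDX6 had 54.4 and 52.0 TPM in sgDDX6.1 libraries, 52.3 and 53.5 TPM in sgDDX6.2 libraries, against 102 and 99.5 TPM in sgNS libraries, a log2 fold change over both guides of -0.91 (SE 0.04, limma adjusted p = 4.61e-09). Of 8 myeloid markers, LYZ and CD33 were high (at least 9531 and 47.8 TPM in every library) while CD14 lay between 0.37 and 1.36 TPM. Beside LYZ, CD68 had means of 276 TPM in sgDDX6.1, 396 TPM in sgDDX6.2 and 225 TPM in sgNS, and CSF1R had 1.98, 4.47 and 0.845 TPM in the same order. Lower in both sgDDX6 groups were MPO (40.5, 29.9 and 83.2 TPM in the same order), FCGR1A (15.5, 14.6 and 23.2 TPM), ITGAM (2.81, 3.46 and 4.21 TPM) and CD14 (0.57, 0.695 and 1.27 TPM). The 8 summed to 14213 to 14791 TPM in sgDDX6.1, 14990 to 15439 TPM in sgDDX6.2 and 9922 to 10413 TPM in sgNS, mostly LYZ. Of 18 markers of other cell types, 16 stayed below 1 TPM in every library and 10 were at 0 throughout. The exceptions were the B cell gene CD79A (at most 1.29 TPM) and PECAM1, which monocytes also express. The endothelial list of 3 genes, nearly all of it PECAM1, summed to 135 to 139 TPM in sgDDX6.1, 192 to 200 TPM in sgDDX6.2 and 64.7 to 66.9 TPM in sgNS, with CDH5 at 0 and VWF at no more than 0.02 TPM. The part of these markers in the results was not tested. In bulk RNA, fewer cells that express a gene and less RNA per cell cannot be told apart.

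The expressed ABC genes were led by those that act on ribosomes. Averaged over all 6 libraries, ABCF1 had 165 TPM, ABCE1 149 TPM and ABCF2 111 TPM. Of the other genes named here, the highest were ABCB10 at 69.1 TPM and ABCF3 at 60.5 TPM. In the middle stood ABCD3 (52.5 TPM), ABCA2 (42.7 TPM), ABCC4 (27.2 TPM), ABCC10 (19.6 TPM), ABCA7 (16.2 TPM) and ABCD4 (13.7 TPM). Below 10 TPM were ABCC1, ABCB6, ABCB8, ABCC5, ABCA5, ABCA1, ABCB4, ABCB9, ABCA3 and ABCC2. Some neighbours among these did not differ beyond the spread between replicates: ABCB6, ABCB8 and ABCC5 averaged 6.31, 6.11 and 6.01 TPM with within-group SDs of 0.371, 0.369 and 0.328, and ABCB9 and ABCA3 differed by 0.01 TPM. Of the 23 genes, 22 had at least 1 TPM in all 6 libraries. The one nearest the threshold was ABCC2, which had at least 1 TPM in both sgNS libraries and in 1 sgDDX6.1 library, and would have been kept through sgNS alone.

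The 21 genes that were not kept were far below the threshold, the highest being ABCD2 at no more than 0.26 TPM and ABCA10 at no more than 0.20 TPM. Of these, 16 never reached 0.1 TPM, and 4 of the 16 were listed at 0 in all libraries (ABCB5, ABCC8, ABCC12 and ABCG5). They include ABCB1 (P-glycoprotein) and ABCG2, the best known multidrug exporters, and every ABCG gene in the table. ABCB1 was listed at 0 in both sgDDX6.1 and both sgNS libraries and at 0.01 TPM in 1 sgDDX6.2 library. ABCG2 had 0.05 and 0.02 TPM in sgDDX6.1, 0.03 and 0.04 TPM in sgDDX6.2, against 0.06 and 0.03 TPM in sgNS, and the groups overlap. ABCG1, the partner of ABCA1 in sterol efflux, was listed at 0 in all 4 sgDDX6 libraries and at 0 and 0.02 TPM in sgNS. TPM carry no read depth, so no detection limit can be given for these genes, and no comparison was made on them.

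**Figure D1:**
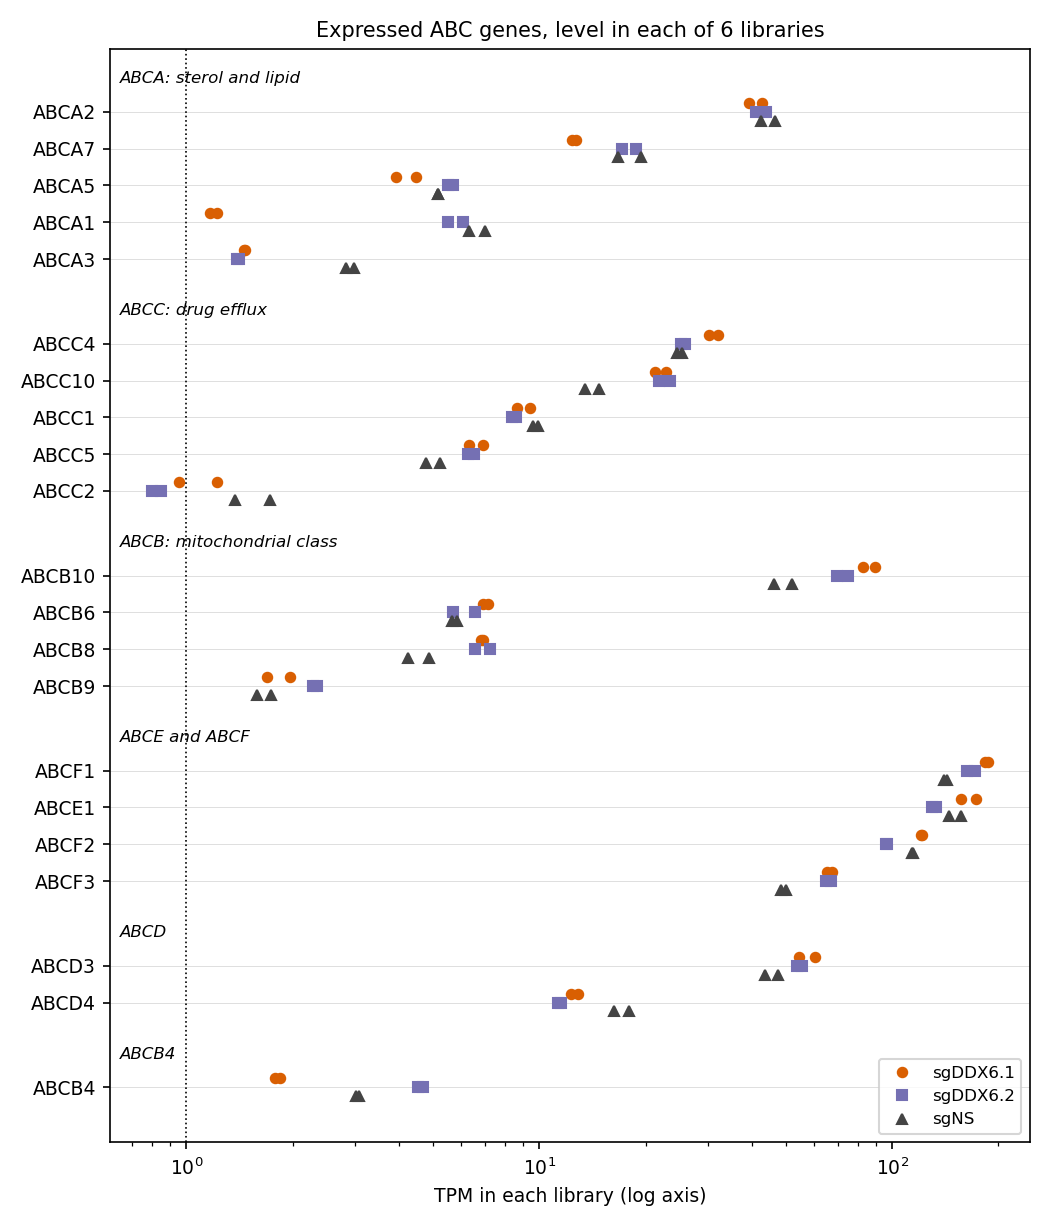
TPM of 21 expressed ABC genes in each of the 6 libraries, on a log axis, with sgDDX6.1 as circles, sgDDX6.2 as squares and sgNS as triangles; the dotted line is the threshold of 1 TPM. ABCF1, ABCE1 and ABCF2 lie highest, the sgDDX6.1 libraries stand apart from the others for ABCA1, and the 3 groups separate for ABCB4.

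Across the family, changes went both ways. Averaged over both guides, 8 of the 23 genes rose and 6 fell against sgNS by limma on log2(TPM + 1) with Benjamini-Hochberg adjustment over all 11151 genes tested (adjusted p under 0.05), and 9 were not called. Of all genes tested 66.7% were called in this comparison, 33.8% higher and 32.9% lower, so the share of ABC genes called was near the background. The median size of the difference was 0.25 on the log2 scale, next to 0.23 over all genes. In 5 genes the size was 0.5 or more (ABCA1, ABCA3, ABCB10, ABCC10 and ABCB8); 17.4% of all genes were called with such a size. In 7 genes all 4 sgDDX6 libraries lay above both sgNS libraries (31.5% of all genes) and in 6 all lay below (31.9%, and 63.4% in either direction). ABCC2 is counted among the genes that fell and among those that lay below, although it was kept through sgNS, where it is high. Its direction is therefore partly set by the filter.

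Taken by guide, 15 genes were called with sgDDX6.1 (9 higher and 6 lower; background 61.6%, with 31.8% higher and 29.7% lower) and 17 with sgDDX6.2 (10 higher and 7 lower; background 64.2%, with 31.5% higher and 32.7% lower). Both comparisons use the same sgNS libraries, and the 7 lower with sgDDX6.2 include ABCC2, kept through sgNS. Calls with a size of 0.5 or more numbered 6 with sgDDX6.1 (background 17.4%) and 5 with sgDDX6.2 (background 20.4%). With both guides 7 genes rose, ABCB10, ABCB8, ABCC10, ABCC5, ABCD3, ABCF1 and ABCF3, and 2 fell, ABCA3 and ABCD4. ABCB4 was called in opposite directions, as were 1.25% of all genes. Set directly against each other, the guides differed in 10 of the 23 genes, 5 higher and 5 lower with sgDDX6.1 (background 35.6%, with 18.6% higher and 17.0% lower). A size of 0.5 or more between the guides was reached by ABCA1 and ABCB4 (background 4.63%). Whether the paired libraries of a group were grown as separate cultures is not stated, so the p-values reflect a spread between libraries that may be technical.

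**Figure D2:**
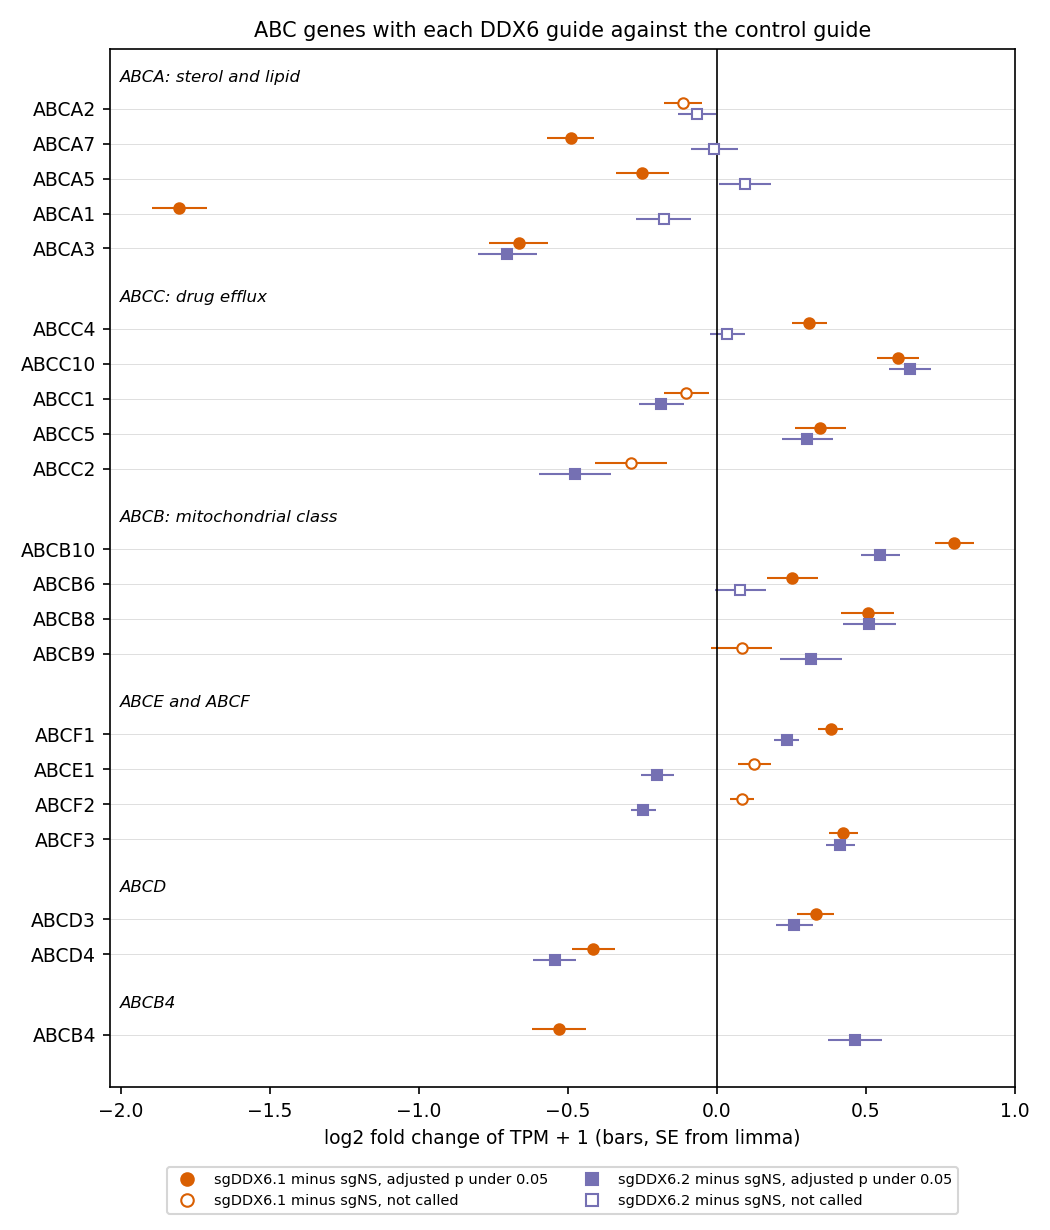
Log2 fold change of TPM + 1 of 21 expressed ABC genes with sgDDX6.1 (circles) and sgDDX6.2 (squares) against sgNS, with bars for the SE from limma and filled symbols for an adjusted p under 0.05. ABCA1 fell by 1.80 with sgDDX6.1 and had -0.18, not called, with sgDDX6.2, while ABCB10, ABCC10 and ABCB8 rose with both guides.

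Among the sterol and lipid exporters, the ABCA genes were called lower or not at all, and for most of them the call came with sgDDX6.1. Of 16 symbols in the ABCA and ABCG families without ABCG2, 5 were expressed. Over both guides 3 fell, ABCA1, ABCA3 and ABCA7, and none rose, where 32.9% of all genes were called lower and 33.8% higher. The median was -0.25 against 0.00084 over all genes tested. With sgDDX6.1, 4 of the 5 fell (median -0.49), where 29.7% of all genes were called lower. With sgDDX6.2, 1 of the 5, ABCA3, was called, and it fell (median -0.07), where 32.7% of all genes were called lower. Summed over the 16 symbols, their level was 62.9 and 58.7 TPM in sgDDX6.1, 71.9 and 75.4 TPM in sgDDX6.2, and 74.8 and 80.8 TPM in sgNS.

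ABCA1, on chromosome 9 from 104781002 to 104928237 (GRCh38, minus strand), had the largest difference of the 23 genes. It had 1.17 and 1.22 TPM in sgDDX6.1 libraries and 6.06 and 5.50 TPM in sgDDX6.2 libraries, against 7.01 and 6.34 TPM in sgNS libraries. The sgDDX6.1 libraries lay far below all others, and the sgDDX6.2 libraries lay just below those of sgNS without overlap. In sgDDX6.1 the mean was 0.179 times that of sgNS, a log2 fold change of -1.80 (SE 0.09, limma adjusted p = 2.32e-08). With sgDDX6.2 the log2 fold change was -0.18 (SE 0.09, limma adjusted p = 0.113). The guides differed by -1.63 on the log2 scale (sgDDX6.1 minus sgDDX6.2, SE 0.09, limma adjusted p = 8.66e-07), and ABCA1 was lower in both sgDDX6.1 libraries. The average over both guides, -0.99 (SE 0.08, limma adjusted p = 7.15e-07), therefore joins unlike values, and it was not called when the 4 sgDDX6 libraries were treated as 1 group (adjusted p = 0.145).

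ABCA3, which moves phospholipid into the lamellar bodies of lung cells, fell with both guides. It had 1.46 and 1.47 TPM in sgDDX6.1 and 1.41 and 1.39 TPM in sgDDX6.2, against 2.84 and 2.98 TPM in sgNS. All 4 sgDDX6 libraries were at about the same level, below both sgNS libraries. Its mean was 0.503 times that of sgNS with sgDDX6.1 and 0.481 times with sgDDX6.2. Over both guides the log2 fold change was -0.68 (SE 0.09, limma adjusted p = 2.46e-05), and the guides differed by 0.04 (SE 0.10, limma adjusted p = 0.792).

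ABCA7, a phospholipid exporter that also takes part in phagocytosis, had 12.7 and 12.4 TPM in sgDDX6.1, 17.2 and 18.7 TPM in sgDDX6.2, and 16.8 and 19.4 TPM in sgNS. The sgDDX6.1 libraries were below the rest, and those of sgDDX6.2 overlapped with sgNS. It fell by 0.49 with sgDDX6.1 (SE 0.08, limma adjusted p = 0.000228) and had -0.01 with sgDDX6.2 (adjusted p = 0.937), and the guides differed by -0.48 (SE 0.08, limma adjusted p = 0.000925). Over both guides it had -0.25, a call that was lost without sgNS replicate 2 (-0.15, limma adjusted p = 0.132) and with the sgDDX6 libraries as 1 group (adjusted p = 0.257). ABCA5, of the endolysosomal membrane, had 4.48 and 3.93 TPM in sgDDX6.1, 5.69 and 5.50 TPM in sgDDX6.2, and 5.18 TPM in both sgNS libraries. The sgDDX6.1 libraries were lowest, and the guides differed by -0.34 (SE 0.09, limma adjusted p = 0.0112), a call that was lost without sgDDX6.1 replicate 2 (-0.27) or sgDDX6.2 replicate 1 (-0.32). ABCA2, a lipid transporter of endolysosomes and the most abundant ABCA gene, had 42.8 and 39.4 TPM in sgDDX6.1, 41.1 and 43.8 TPM in sgDDX6.2, and 42.6 and 46.5 TPM in sgNS, with all groups overlapping and no call in any comparison. ABCA5 stands on chromosome 17 beside ABCA10, ABCA6, ABCA9 and ABCA8, none of which reached 1 TPM; an exon of ABCA10 overlaps one of ABCA5 on the same strand in GENCODE release 29.

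**Figure D3:**
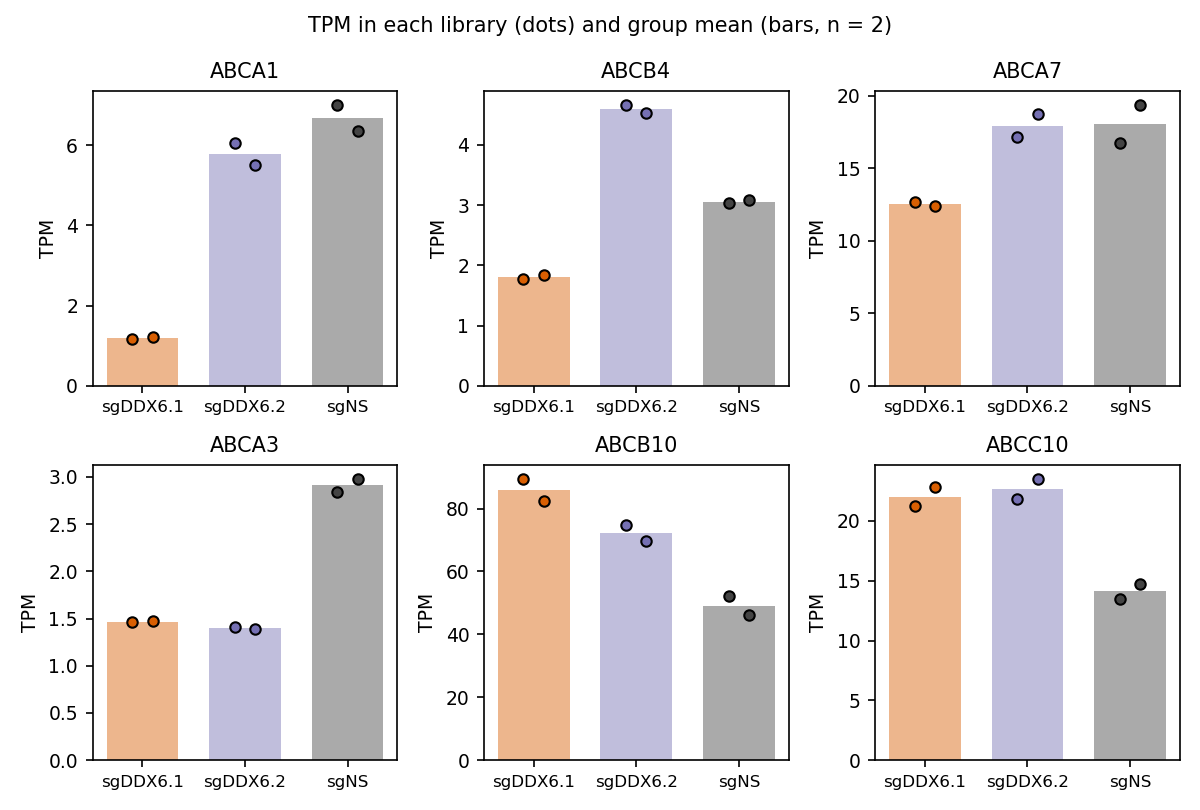
TPM of 6 ABC genes in each library (dots) with the mean of each group (bars, n = 2). ABCA1 and ABCA7 are low in sgDDX6.1, ABCB4 is low in sgDDX6.1 and high in sgDDX6.2, ABCA3 is low and ABCB10 and ABCC10 are high with both guides.

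The promoters of the genes with a single RefSeq promoter entry that fell most (ABCA1 and ABCA3) and rose most (ABCB10) over both guides are shown, since these genes differ in how the guides moved them. Each line gives the 250 bases before the start, 5′ to 3′ on the strand of the gene, from RefSeq in GRCh38.p14. Capitals mark matches on either strand to the E-box CACGTG, the GC box GGGCGG and the TATA box TATAAA, and DR4, a direct repeat of AGGTCA with a spacer of 4 bases of the kind LXR binds, was searched too.
ABCA1, chr9:104928156-104928405, minus strand: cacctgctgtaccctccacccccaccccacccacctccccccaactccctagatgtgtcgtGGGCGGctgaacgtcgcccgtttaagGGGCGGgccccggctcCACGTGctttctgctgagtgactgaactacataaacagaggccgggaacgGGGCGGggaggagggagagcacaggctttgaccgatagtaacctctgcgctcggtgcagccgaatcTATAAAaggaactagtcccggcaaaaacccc
ABCA3, chr16:2340729-2340978, minus strand: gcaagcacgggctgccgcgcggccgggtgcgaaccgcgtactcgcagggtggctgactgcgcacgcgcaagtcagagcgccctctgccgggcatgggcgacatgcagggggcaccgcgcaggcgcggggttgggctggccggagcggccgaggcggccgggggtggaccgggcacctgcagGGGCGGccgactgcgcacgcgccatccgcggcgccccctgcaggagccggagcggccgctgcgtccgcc
ABCB10, chr1:229558708-229558957, minus strand: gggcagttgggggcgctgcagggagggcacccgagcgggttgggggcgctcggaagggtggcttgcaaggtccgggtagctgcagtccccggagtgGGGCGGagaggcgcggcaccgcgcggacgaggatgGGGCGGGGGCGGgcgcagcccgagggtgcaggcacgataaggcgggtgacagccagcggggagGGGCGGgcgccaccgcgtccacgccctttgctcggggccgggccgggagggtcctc

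The ABCA1 window held 1 E-box, its first base at -147 from the start, 3 GC boxes and a TATA box at -31. The ABCA3 window held 1 GC box and the ABCB10 window 4, of which 2 adjoin. Different motifs did not overlap in these windows. Of 35116 promoter windows of the same length, 6.34% held the E-box, 42.6% the GC box, 10.7% the TATA box and 0.0142% the DR4 repeat. For the expressed ABC genes, 19 of 23 had an entry, 23 windows in all, of which 5 held the E-box, 18 the GC box, 4 the TATA box and none the repeat. These matches describe letters only. The repeat was searched only in its exact letters, so a site that departs from them in any letter was not marked. Its absence therefore does not show that these promoters, that of ABCA1 among them, lack a site for LXR.

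Other genes of sterol handling were set beside ABCA1. In a list of 22 LXR and sterol genes, 20 were tested, and over both guides 9 rose and 7 fell (median 0.09), beside 33.8% and 32.9% of all genes. By lowest adjusted p, the lipoprotein receptor SCARB1 (0.98), the LXR partner RXRA (0.70) and the lysosomal lipase LIPA (0.45) rose on the log2 scale, and the lipogenic factor SREBF1 fell by 0.81. Between the guides 11 of the 20 were lower with sgDDX6.1 and none was higher (median -0.22), where 17.0% of all genes were lower and 18.6% higher. SREBF1 had 14.2 and 14.2 TPM in sgDDX6.1, 23.0 and 23.7 TPM in sgDDX6.2, against 31.9 and 33.5 TPM in sgNS. APOE, which takes up exported cholesterol and was chosen after its value was seen, had 29.7 and 33.0 TPM in sgDDX6.1, 55.5 and 54.7 TPM in sgDDX6.2, and 48.9 and 50.7 TPM in sgNS. The LXR genes NR1H3 and NR1H2, also chosen after their values were seen, were not called between the guides, at 0.09 (SE 0.09, limma adjusted p = 0.475) and 0.03 (SE 0.06, adjusted p = 0.766). Against sgNS, over both guides, NR1H3 rose (0.37, limma adjusted p = 0.0013) and NR1H2 fell (-0.39, adjusted p = 4.74e-05).

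**Figure D4:**
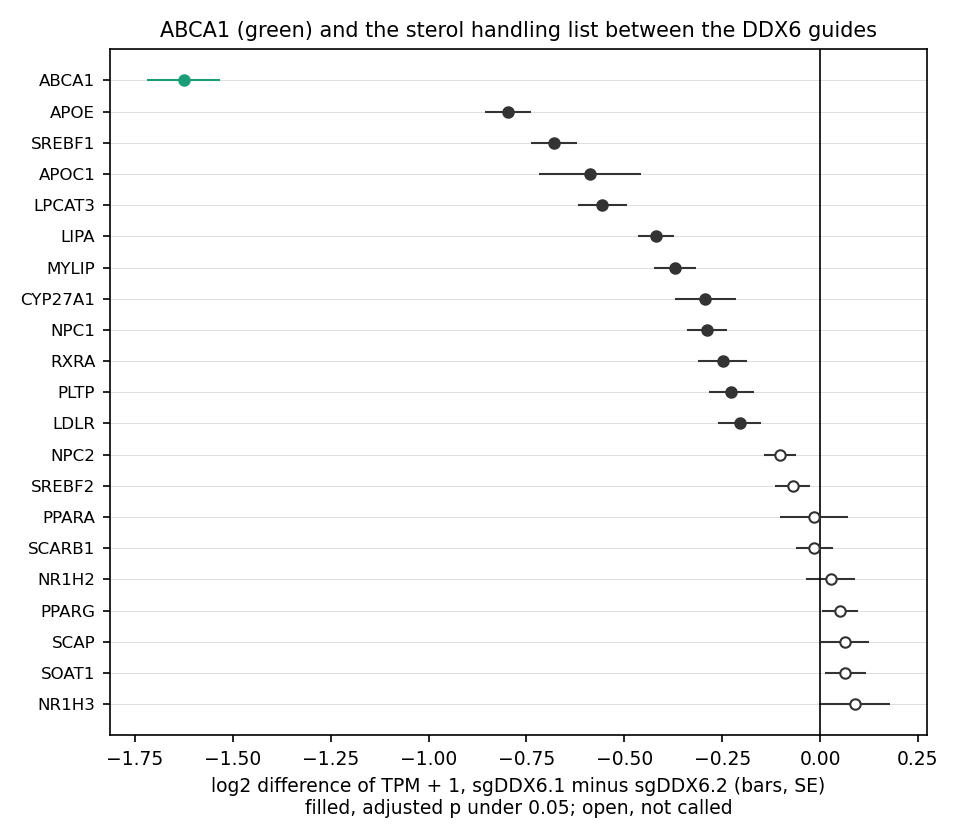
Log2 difference of TPM + 1 between the guides, sgDDX6.1 minus sgDDX6.2, for ABCA1 (green) and the 20 tested genes of the sterol handling list, with bars for the SE and filled symbols for an adjusted p under 0.05. ABCA1 at -1.63 lies lowest, 11 list genes are called lower with sgDDX6.1 and none is called higher.

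Among the drug exporters, ABCC10 and ABCC5 rose with both guides and ABCC4 rose with sgDDX6.1. The rule counted every ABCC gene as drug efflux, whatever its known function. Of 12 symbols (ABCB1, the ABCC genes and ABCG2) 5 were expressed, all of the ABCC family, and these 5 are also called multidrug resistance proteins. Over both guides 3 were called higher and 1 (ABCC2) lower, beside 33.8% and 32.9% of all genes. Not called was 1, and the median was 0.17. With sgDDX6.1, 3 were called higher and none lower (median 0.31), where 31.8% of all genes were higher and 29.7% lower. With sgDDX6.2, 2 were called higher and 2 lower (median 0.03), where 31.5% of all genes were higher and 32.7% lower. ABCC2 passed the filter on low values only through sgNS, where it is high, so its direction is partly set by the filter. Summed over the 12 symbols, the level was 71.2 and 69.2 TPM in sgDDX6.1 and 62.9 and 65.5 TPM in sgDDX6.2. In sgNS the sum was 55.4 and 56.1 TPM, so the sgDDX6 libraries were all higher. Much of this came from ABCC10, with means of 22.0 TPM in sgDDX6.1, 22.7 TPM in sgDDX6.2 and 14.1 TPM in sgNS. ABCC4 added to it with sgDDX6.1 (31.2, 25.6 and 25.0 TPM in the same order). ABCC1 and ABCC2 had lower means in both sgDDX6 groups.

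ABCC10 (MRP7; chromosome 6 from 43427366 to 43450430), known for the export of taxanes, had 21.2 and 22.8 TPM in sgDDX6.1 and 21.9 and 23.5 TPM in sgDDX6.2, against 13.5 and 14.7 TPM in sgNS. All 4 sgDDX6 libraries were higher, at 1.56 times the sgNS mean with sgDDX6.1 and 1.61 times with sgDDX6.2. Over both guides ABCC10 rose by 0.63 on the log2 scale (SE 0.06, limma adjusted p = 3.22e-06), and the guides differed by -0.04 (adjusted p = 0.686). An exon of DLK2 overlaps ABCC10 on the opposite strand, and the strand setting of the counting is not given in the sources used here. ABCC5 (MRP5), an exporter of cyclic nucleotides and nucleotide analogues, had 6.92 and 6.34 TPM in sgDDX6.1 and 6.26 and 6.54 TPM in sgDDX6.2, against 4.76 and 5.24 TPM in sgNS, and rose by 0.33 over both guides (SE 0.07, limma adjusted p = 0.00221).

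ABCC4 (MRP4), which exports cyclic nucleotides and nucleotide analogue drugs, rose with sgDDX6.1. It had 32.2 and 30.2 TPM in sgDDX6.1, 25.3 and 25.9 TPM in sgDDX6.2, and 25.4 and 24.5 TPM in sgNS, so that sgDDX6.2 overlapped with sgNS. Its log2 fold change was 0.31 with sgDDX6.1 (limma adjusted p = 0.000726) and 0.03 with sgDDX6.2 (adjusted p = 0.63), a difference between the guides of 0.28 (SE 0.06, adjusted p = 0.00417). Over both guides it had 0.17 (limma adjusted p = 0.0105), a call that was lost without sgNS replicate 2 (0.15, adjusted p = 0.0838) and with the sgDDX6 libraries as 1 group (adjusted p = 0.206). ABCC1 (MRP1), an exporter of glutathione conjugates and anthracyclines, had 9.40 and 8.66 TPM in sgDDX6.1, 8.35 and 8.58 TPM in sgDDX6.2, and 9.61 and 9.93 TPM in sgNS. All 4 sgDDX6 libraries were slightly lower, with a log2 fold change over both guides of -0.14 that was not called (SE 0.07, limma adjusted p = 0.0691), but was without sgDDX6.1 replicate 1 (-0.17, adjusted p = 0.0374) and without the variance trend (adjusted p = 0.0348). With sgDDX6.2 alone it was called lower (-0.19, limma adjusted p = 0.0477). ABCC2 (MRP2), an exporter of organic anions, had 1.22 and 0.95 TPM in sgDDX6.1, 0.85 and 0.80 TPM in sgDDX6.2, and 1.72 and 1.37 TPM in sgNS, with all 4 sgDDX6 libraries below both sgNS libraries. Its log2 fold change was -0.29 with sgDDX6.1 and -0.48 with sgDDX6.2, given as a description since ABCC2 was kept through sgNS alone. Over both guides it was -0.38, and -0.28 without sgNS replicate 1, where it was not called.

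In the list of 21 genes of drug and glutathione handling, 19 were tested, of which 12 rose and 4 fell over both guides (median 0.19), where 33.8% of all genes rose and 32.9% fell. The glutathione-cleaving enzyme GGT1 (0.97), the glutathione transferases MGST3 (0.49) and GSTP1 (0.49) and the vault protein MVP (0.59) had the lowest adjusted p and rose. Of these, GGT1, MVP and GSTP1 differed between the guides by -1.31, -0.68 and -0.27, being higher with sgDDX6.2. MGST3 was not called between the guides (0.02).

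The rule held several ABCB genes together as mitochondrial, although ABCB9 encodes a lysosomal peptide transporter and ABCB6 has been found in other membranes too. Over both guides ABCB10 and ABCB8 rose, and ABCB6 and ABCB9 were not called.

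ABCB10 (chromosome 1 from 229516582 to 229558695, minus strand), an inner membrane transporter needed for heme synthesis, had 89.5 and 82.5 TPM in sgDDX6.1 and 74.7 and 69.7 TPM in sgDDX6.2, against 52.1 and 46.1 TPM in sgNS. The 3 groups did not overlap. It rose to 1.75 times the sgNS mean with sgDDX6.1 and 1.47 times with sgDDX6.2, with a log2 fold change over both guides of 0.67 (SE 0.06, limma adjusted p = 9.17e-07) and a difference between the guides of 0.25 (SE 0.07, adjusted p = 0.0126). The difference between the guides was not called without sgDDX6.1 replicate 1 (0.19) or sgDDX6.2 replicate 2 (0.20). That call was also lost with no filter (limma adjusted p = 0.0731) and without the variance trend (adjusted p = 0.0502). GENCODE release 29 names 3 pseudogenes of ABCB10, which can share reads with it. ABCB8, a transporter of the same membrane, had 6.92 and 6.83 TPM in sgDDX6.1 and 6.58 and 7.23 TPM in sgDDX6.2, against 4.24 and 4.86 TPM in sgNS, and rose by 0.51 over both guides (SE 0.08, limma adjusted p = 0.000111).

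ABCB6, a porphyrin transporter, had 6.91 and 7.17 TPM in sgDDX6.1, 5.71 and 6.56 TPM in sgDDX6.2, and 5.65 and 5.84 TPM in sgNS, and was called with sgDDX6.1 (0.25). Over both guides ABCB6 had 0.17, which was called without sgDDX6.2 replicate 1 (0.21), with quantile normalization (0.27) and without the variance trend (adjusted p = 0.0408). ABCB9 had 1.96 and 1.69 TPM in sgDDX6.1, 2.34 and 2.29 TPM in sgDDX6.2, and 1.59 and 1.74 TPM in sgNS, and was called with sgDDX6.2 (0.32). Over both guides ABCB9 had 0.20 (limma adjusted p = 0.0683), which was called with quantile normalization (0.30, adjusted p = 0.0107), with median centring (0.20, adjusted p = 0.05) and without the variance trend (adjusted p = 0.0161). Exons of 3 genes on the opposite strand overlap it. Of 28 iron-sulfur and heme genes, 27 were tested, and over both guides 15 rose and 4 fell (median 0.20), beside 33.8% and 32.9% of all genes. The mitochondrial chaperone HSPA9 (-0.73) and the iron importer SLC25A37 (-0.78) fell, and the cysteine desulfurase NFS1 (0.62) and the cytosolic assembly factor NUBP1 (0.59) rose.

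Of the translation-linked genes all 4 were expressed, and over both guides ABCF1 and ABCF3 rose while ABCE1 and ABCF2 were not called (median 0.14). ABCE1 and ABCF2 were called lower with sgDDX6.2 and not called with sgDDX6.1. Summed, the 4 had 546 and 529 TPM in sgDDX6.1, 456 and 464 TPM in sgDDX6.2, and 459 and 453 TPM in sgNS. Between the guides 3 of the 4 were higher with sgDDX6.1, the exception being ABCF3, where 18.6% of all genes were higher.

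ABCE1, which splits ribosomes after termination so that they can be used again, had 173 and 156 TPM in sgDDX6.1, 133 and 129 TPM in sgDDX6.2, and 157 and 145 TPM in sgNS. The sgDDX6.2 libraries were lowest, and sgDDX6.1 overlapped with sgNS. Its log2 fold change was 0.12 with sgDDX6.1 (SE 0.06, limma adjusted p = 0.0679) and -0.20 with sgDDX6.2 (SE 0.06, adjusted p = 0.00738), and the guides differed by 0.33 (SE 0.06, adjusted p = 0.00112). Exons of 3 genes on the opposite strand, among them ANAPC10 and OTUD4, overlap ABCE1. ABCF2 had 121 and 122 TPM in sgDDX6.1, 95.8 and 96.7 TPM in sgDDX6.2, and 114 and 115 TPM in sgNS, with no overlap among the groups. Its log2 fold change was 0.08 with sgDDX6.1 (limma adjusted p = 0.0961) and -0.25 with sgDDX6.2 (adjusted p = 0.000245), and the guides differed by 0.33 (SE 0.04, adjusted p = 0.000149). The average of ABCF2 over both guides, -0.08, was not called (SE 0.04, limma adjusted p = 0.0588). It was called lower with quantile normalization (-0.13, adjusted p = 0.00479), with no filter (adjusted p = 0.0267) and with a replicate block (adjusted p = 0.031). ABCF2 has 2 named pseudogenes, and 1 other protein-coding gene overlaps its exons on the same strand.

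ABCF1, which binds the initiation factor eIF2 and ribosomes, had 187 and 183 TPM in sgDDX6.1 and 163 and 171 TPM in sgDDX6.2, against 140 and 143 TPM in sgNS. The groups did not overlap, and ABCF1 rose by 0.31 over both guides (SE 0.04, limma adjusted p = 1.43e-05). The guides differed by 0.15 (adjusted p = 0.0182), which was not called without sgDDX6.1 replicate 1 (0.13) or sgDDX6.2 replicate 1 (0.11). That call was also lost without the variance trend (limma adjusted p = 0.0702). ABCF3 had 65.2 and 67.5 TPM in sgDDX6.1 and 64.8 and 66.9 TPM in sgDDX6.2, against 48.4 and 49.9 TPM in sgNS. All 4 sgDDX6 libraries were higher, and ABCF3 rose by 0.42 over both guides (SE 0.04, limma adjusted p = 3.91e-06), and the guides differed by 0.01 (adjusted p = 0.888). In a list of 24 genes of ribosome recycling and initiation, all tested, 7 rose and 10 fell over both guides (median -0.07), beside 33.8% and 32.9% of all genes. GTPBP2, which acts with rescue factors on stalled ribosomes, fell by 1.40, the eIF2 subunits EIF2S2 and EIF2S3 fell by 0.68 and 0.45, and EIF5 rose by 0.61. Between the guides 10 of these 24 were higher with sgDDX6.1 and none was lower (median 0.14), where 18.6% of all genes were higher and 17.0% lower.

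Of the ABCD genes, ABCD3 rose and ABCD4 fell with both guides. ABCD3, a peroxisomal importer of branched-chain and bile acid precursors, had 60.5 and 54.5 TPM in sgDDX6.1 and 55.5 and 53.7 TPM in sgDDX6.2, against 47.4 and 43.5 TPM in sgNS, and rose by 0.30 over both guides (SE 0.05, limma adjusted p = 0.000462). ABCD4, which takes part in the release of vitamin B12 from lysosomes, had 12.9 and 12.3 TPM in sgDDX6.1 and 11.3 and 11.5 TPM in sgDDX6.2, against 16.3 and 18.0 TPM in sgNS. It fell by 0.48 (SE 0.06, limma adjusted p = 3.42e-05), with all 4 sgDDX6 libraries below both sgNS libraries. Of 16 peroxisomal fatty acid genes, all tested, 7 rose and 3 fell over both guides (median 0.11), beside 33.8% and 32.9% of all genes. HSD17B4 (0.50) and SCP2 (0.40) of peroxisomal beta-oxidation rose, and the acyl-CoA synthetases ACSL1 (-1.15) and SLC27A2 (-0.40) fell.

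ABCB4, known in liver as the transporter that brings phosphatidylcholine into bile, was called in opposite directions by the guides. It had 1.78 and 1.84 TPM in sgDDX6.1 and 4.67 and 4.53 TPM in sgDDX6.2, against 3.03 and 3.09 TPM in sgNS. The sgDDX6.1 libraries were below and the sgDDX6.2 libraries above both sgNS libraries. The log2 fold change was -0.53 with sgDDX6.1 (SE 0.09, limma adjusted p = 0.000347) and 0.46 with sgDDX6.2 (SE 0.09, adjusted p = 0.000846), and the guides differed by -0.99 (SE 0.09, adjusted p = 1.88e-05). The average over both guides, -0.03, joins values of opposite sign. ABCB4 stands on chromosome 7 from 87401697 to 87480435 (GRCh38), beside its close relative ABCB1 at 87503633 to 87713323, which was listed at or near 0 TPM in all 6 libraries. Reads of such close relatives can be split between them in counting.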

How the data were processed

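The authors deposited TPM for each gene symbol and library, made with RSEM 1.2.31 on GRCh38 per the submitters' processing notes. The aligner, the annotation and the strand setting of the counting are not given in these sources. TPM are shares of a library scaled by length, so they sum to the same total and carry no depth, and no interval that needs counts is given.

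A gene was kept (11151 were) if its TPM reached 1 in at least 2 of the 6 libraries. The log2(TPM + 1) values were fitted with limma 3.58.1 in R 4.3.3 as 3 group means with a variance trend (3 residual degrees of freedom). The contrasts set both guides, and each guide alone, against sgNS, and sgDDX6.1 against sgDDX6.2. All tests are two-sided, and p-values were adjusted over all genes (Benjamini-Hochberg, threshold 0.05). Fold changes on this scale understate those of low genes. The procedure was tested on simulated data with independent noise, where changes were planted alike for both guides and not in low genes. That test therefore does not cover changes that differ between the guides, or those of low genes.

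The members, classes, 6 companion lists and rule for named genes were chosen with earlier results of these data known. Counts over the family cover all 23 expressed members; 21 are named, and results that need the other 2, or 1 further gene, are not reported here. From each list, up to 4 genes with the lowest adjusted p over both guides are named. Lists and classes are described by counts and medians without a set test. Coordinates and overlaps come from GENCODE release 29 (GRCh38), whose match to the deposited table was not established, and promoters from RefSeq (GRCh38.p14). Beside the overlaps given above, exons of ABCB6 and ABCD4 are each overlapped by 1 gene on the same strand. Exons of ABCB8 are overlapped by 1 gene on the opposite strand. Alternatives were pseudocounts, filters, scalings, the limma options trend and robust, a replicate block, single libraries left out, a fit of the compared groups alone, and the sgDDX6 libraries as 1 group.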

Additional observations from a re-analysis of the deposited data

Results flagged for a closer look

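In 10 of the 23 expressed ABC genes the effects of the 2 DDX6 guides, each against the same sgNS libraries, differed by the test of the difference itself (limma adjusted p under 0.05); 35.6% of all genes tested did. For 9 of them the log2 difference, sgDDX6.1 minus sgDDX6.2, is given. ABCA1 (-1.63), ABCB4 (-0.99), ABCA7 (-0.48) and ABCA5 (-0.34) were lower with sgDDX6.1. ABCF2 (0.33), ABCE1 (0.33), ABCC4 (0.28), ABCB10 (0.25) and ABCF1 (0.15) were higher with sgDDX6.1. For ABCB10 and ABCF1 both guides were above sgNS, and the difference was one of size. DDX6 mRNA itself differed between the guides by 0.01 (adjusted p = 0.918).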

How the results depend on the processing

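Over both guides ABCA3, ABCB8, ABCB10, ABCC5, ABCC10, ABCD3, ABCD4, ABCF1 and ABCF3, and between the guides ABCA1, ABCA7, ABCB4, ABCC4, ABCE1 and ABCF2, kept their calls in every alternative that tested them. ABCA3 and ABCB4 were not tested with a TPM filter of 5. With the sgDDX6 libraries as 1 group 3 members were lower over both guides and 32 companion genes higher (6 and 54 otherwise). Calls were fewer over all genes too, with 2642 lower and 2570 higher (3670 and 3764 otherwise). Without the variance trend 3 members were higher between the guides (5 otherwise), as were 1585 of all genes (2072 otherwise). Leaving out each library gave 7 to 9 higher and 4 to 7 lower over both guides, 8 to 9 and 5 to 6 with sgDDX6.1, 7 to 10 and 5 to 7 with sgDDX6.2, and 3 to 6 and 4 to 5 between the guides (3 without sgDDX6.1 replicate 1). Companion genes then numbered 47 to 54 higher and 25 to 32 lower. Where no cause is named, the cause was not tested.

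The sterol and lipid exporter median was -0.20 with a pseudocount of 5, -0.0143 with no filter, -0.17 with a TPM filter of 5, and -0.35 to -0.15 leaving out each library. The drug efflux median was -0.00511 with no filter, which adds genes near 0, 0.25 with a TPM filter of 5, and 0.15 to 0.20 leaving out each library. The mitochondrial class median (0.20) was 0.29 with a pseudocount of 0.1, 0.11 with 5, 0.34 with a TPM filter of 5, 0.30 with quantile normalization, and 0.16 to 0.24 leaving out each library. The translation-linked median was 0.0758 with quantile normalization and 0.11 to 0.16 leaving out each library.

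The signs that turned belong to differences that were not called. Over both guides ABCA5 had 0.0362 and ABCB4 0.0740 with quantile normalization, and ABCB4 0.00455 with a pseudocount of 5. Leaving out each library gave -0.0932 to 0.0176 for ABCE1. Between the guides quantile normalization gave 0.0558 for ABCB8 and -0.0294 for ABCF3, and median centring -0.00964 for ABCF3. Leaving out each library gave -0.107 to 0.0118 for ABCA2, -0.0636 to 0.0551 for ABCB8, -0.0915 to 0.00999 for ABCC10, -0.0115 to 0.0982 for ABCC5, -0.00226 to 0.146 for ABCD3 and -0.0146 to 0.0356 for ABCF3.

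Samples share only a replicate number (deviations from the group means correlated at 0.0399, 0.262 and 0.0977). With a replicate block 8 members were higher and 7 lower over both guides, ABCF2 joining. For both guides, fitting the groups compared is the same fit.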

Other observations

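The genes whose log2(TPM + 1) over the 6 libraries was most like that of ABCA1, as a description over 6 values in 3 groups, were TXNDC12 (Pearson r 0.999), TPRG1L (0.998), PMP22 (0.997) and TSG101 (0.997). Their range was narrower: TXNDC12 had 167 and 169 TPM in sgDDX6.1, 214 and 210 TPM in sgDDX6.2, and 222 and 217 TPM in sgNS.

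TAP1, a peptide transporter of antigen presentation that belongs to the ABCB family but does not carry an ABC symbol, had 86.2 and 87.7 TPM in sgDDX6.1, 73.1 and 73.2 TPM in sgDDX6.2, and 67.8 and 72.5 TPM in sgNS. It rose with sgDDX6.1 (0.31, limma adjusted p = 0.000179) and had 0.06 with sgDDX6.2 (adjusted p = 0.29). In its list of 13 genes of peptide loading, 9 were tested. Of these, 4 rose and 3 fell over both guides (median 0.02), beside 33.8% and 32.9% of all genes. The chaperones CALR and PDIA3 rose by 1.16 and 0.51, and the peptidase ERAP2 fell (-0.31).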
